A study of Mus musculus with 10 samples.

Results

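This account concerns 10 genes that mark resident macrophages of the perivascular type: Lyve1, Stab1, Cd163, Mrc1, Clec10a, Folr2, Cbr2, Fcna, F13a1 and Pf4. They were followed in mouse incisor mesenchyme after the nerve of the tooth had been cut. The genes were listed by name, and each was read from the probe sets that the platform annotation assigns to it alone, 11 probe sets for the 10 genes. Where a gene had several, the probe set was chosen by its measured level, the highest mean over all 10 arrays, which concerned only Lyve1. All 10 genes were measured, among 18193 genes on the arrays. The list was drawn up with earlier results of these data known, so its common direction is not independent evidence.

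Total RNA was hybridised to 10 expression arrays. The 5 denervated arrays came from lower incisors on the operated side of wild-type C57BL/6J mice, in which the inferior alveolar nerve had been resected on 1 side, and the 5 contralateral arrays came from the unoperated side. All incisors were taken at postnatal day 60, which was 2 weeks after the operation. The design text gives 5 mice, whose sex is labelled as not determined. Arrays of each side are numbered 1 to 5, and arrays of equal number are treated here as the incisors of 1 mouse, for which the labels give no statement. Below, a number means such a pair of arrays. Every mouse was operated on and none had a sham operation, so that nerve loss and surgery cannot be told apart, and a response shared by both sides would not show. Levels are on a log2 intensity scale on which the array medians ran from 1.48 to 1.54, and values below about 3, where 48.7% of the genes had their mean, are called low here. Precision is limited by there being 5 arrays on each side. The odontoblast gene Dspp, which marks the labelled tissue, averaged 12.07 ± 0.14 on denervated and 12.25 ± 0.08 on contralateral arrays (SD, n = 5 each). Epithelial transcripts were also present, with Krt14 at 8.55 ± 0.97 on denervated and 9.04 ± 0.12 on contralateral arrays. The dental epithelium genes Ambn and Amelx, named after their values were seen, averaged 12.69 and 12.41 over the 10 arrays. Over the same arrays Dspp averaged 12.16.

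Tissue macrophages differ by their place. One type lies along small blood vessels, takes up macromolecules from the fluid around it through a set of endocytic receptors, and is known in many tissues by high LYVE1, the mannose receptor and folate receptor beta with little MHC class II. Such cells are maintained by colony stimulating factor 1 through its receptor CSF1R. In whole tissue RNA, as here, a higher value may come from more cells of the type or from more RNA per cell, and these cannot be told apart. Nor do arrays show where in the tissue a transcript lay.

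The 10 genes were all higher on average in the denervated incisors, by a median of 0.70 on the log2 scale and by between 0.24 (Cd163) and 1.51 (Lyve1). Over all genes the median difference was 0.02, and 55.8% were higher on average (65.1% of the genes with a mean of at least 3). In 6 of the 10 genes the denervated array was the higher one in all 5 numbers, as in 6.58% of all genes and in 9.29% of those with a mean of at least 3. Of the 10 genes, in Fcna alone every denervated array lay above every contralateral array, a separation that 0.528% of all genes showed. Among genes named below, Fcgr1, Adgre1, Pdgfrb and Rgs5 showed it too. In limma with Benjamini-Hochberg adjustment over the 18193 genes, 0 of the 10 genes and 0% of all genes had an adjusted p under 0.05. Without adjustment, 5 of the 10 had p under 0.05 and were higher, as were 4.1% of all genes. With the number as a block these were 9 of 10 and 6.99%. Single arrays moved the count of 5: it was 3 (Folr2, Fcna and Mrc1) without denervated array 2, without denervated array 3 or without contralateral array 5, and 9 without denervated array 5. It was 2 (Folr2 and Fcna) without denervated arrays 2 and 3 together. The adjusted p of the 10 genes lay between 0.790 and 0.923 in limma, and between 0.234 and 0.727 with the block, so each difference below is given as a measured value without a call. Because the genes were chosen with earlier results known, nothing is concluded from how far their counts stand above those shares.

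**Figure D1:**
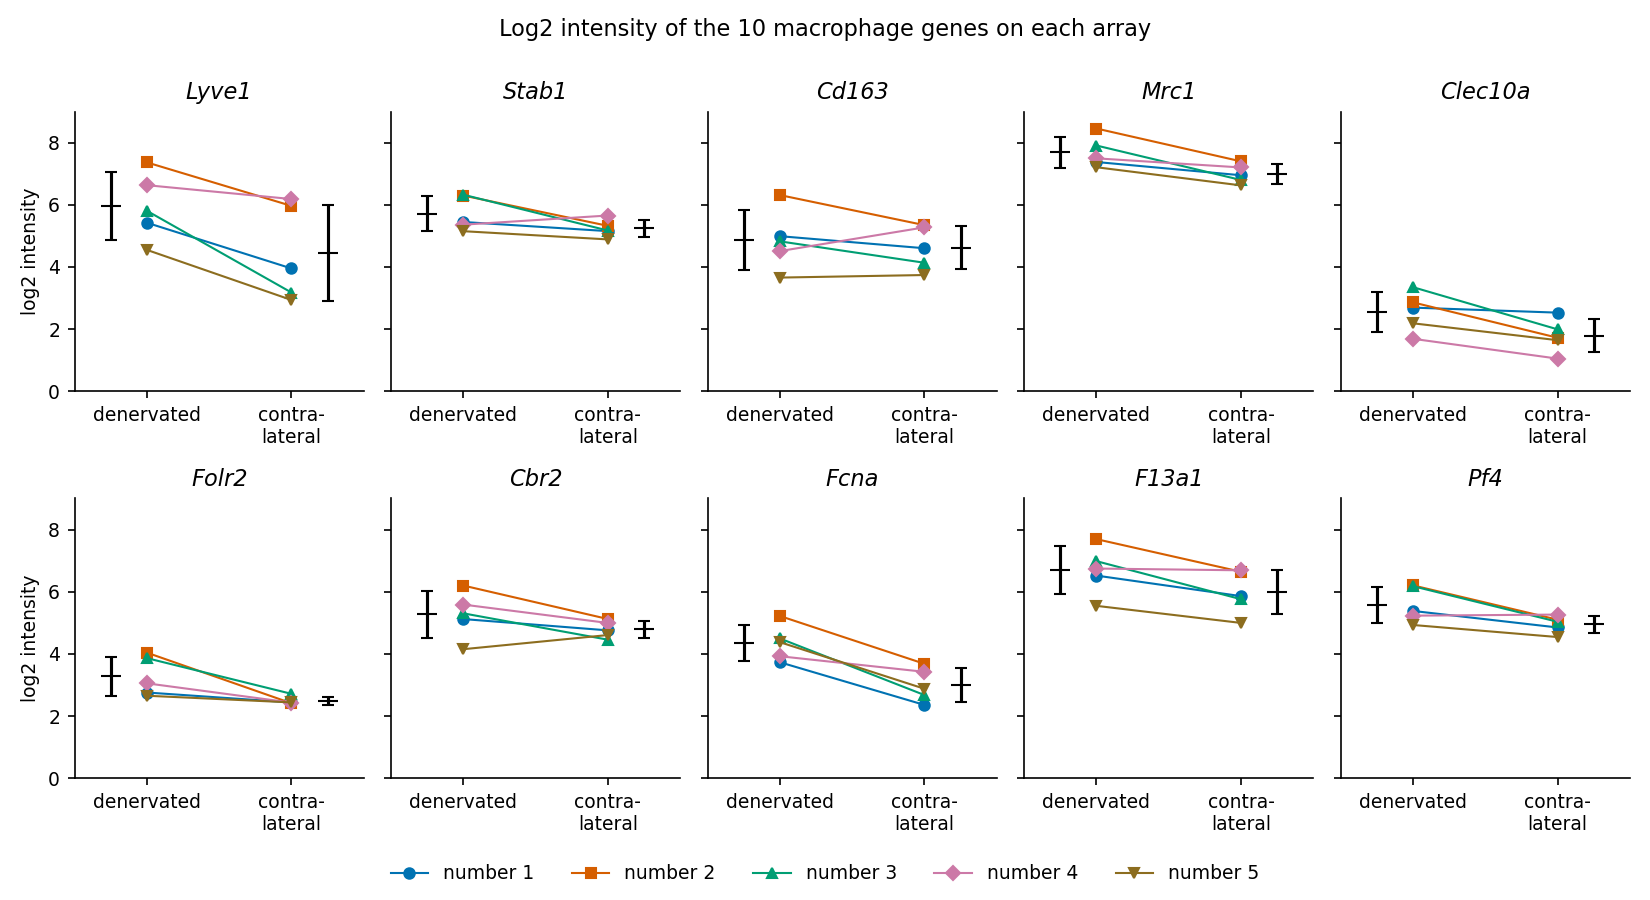
Log2 intensity (vertical axis) of each of the 10 genes on the denervated and contralateral arrays; lines join arrays of equal number, and the black bars give the mean ± SD of the 5 arrays of a side. The lines for Fcna, Mrc1 and Lyve1 slope the same way in all 5 numbers, while for Cd163 numbers 4 and 5 slope the other way.

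Receptors of uptake form the larger group. Lyve1 encodes a receptor for the matrix sugar hyaluronan, known from lymphatic endothelium as well as from macrophages around vessels. On denervated arrays 1 to 5 Lyve1 had log2 values of 5.42, 7.36, 5.80, 6.63 and 4.55, against 3.95, 5.96, 3.18, 6.18 and 2.93 on contralateral arrays 1 to 5. The sides overlapped widely, since numbers 2 and 4 were high on both sides and number 5 was the lowest on both. Within each number the denervated incisor was higher, by 1.47, 1.40, 2.63, 0.45 and 1.61. The difference of the means was 1.51 ± 0.72 (SE; 95% confidence interval -0.06 to 3.09), a 2.85-fold higher level, and the interval narrowed to 0.92 to 2.11 with the number as a block. A second Lyve1 probe set, with a lower mean, was also higher in 5 of 5 numbers, by 0.60 to 1.01, with a mean difference of 0.79.

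Mrc1 encodes the mannose receptor CD206, which takes up glycoproteins with mannose ends. Its values were 7.37, 8.45, 7.90, 7.49 and 7.21 on denervated arrays 1 to 5, against 6.95, 7.40, 6.80, 7.20 and 6.62 on contralateral arrays 1 to 5. Only denervated arrays 1 and 5 lay at or below the highest contralateral array, that of number 2. Mrc1 differed by 0.69 ± 0.23 (95% confidence interval 0.19 to 1.20) and was higher in 5 of 5 numbers.

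Stab1 encodes stabilin-1, a scavenger receptor of macrophages and of sinusoidal endothelium. It had 5.44, 6.29, 6.32, 5.36 and 5.15 on denervated arrays 1 to 5, against 5.15, 5.32, 5.17, 5.65 and 4.88 on contralateral arrays 1 to 5. Denervated arrays 2 and 3 stood above all other arrays, and number 4 went the other way, by -0.29. The mean difference was 0.48 ± 0.24 (-0.05 to 1.01).

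Cd163, the receptor for complexes of haptoglobin and haemoglobin, was the member with the smallest difference. It had 4.99, 6.31, 4.82, 4.51 and 3.66 on denervated arrays 1 to 5, against 4.60, 5.34, 4.13, 5.27 and 3.74 on contralateral arrays 1 to 5. Numbers 1, 2 and 3 were higher on the denervated side and numbers 4 and 5 lower, by -0.76 and -0.08. The mean difference of 0.24 ± 0.45 (-0.76 to 1.24) became -0.12 without denervated array 2, so the direction for Cd163 rested on that array.

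Clec10a encodes a macrophage lectin for galactose-type sugars, and Folr2 encodes folate receptor beta. Both were low, with means of 2.17 and 2.88 over the 10 arrays, where differences are compressed and a value cannot be told from background. Clec10a had 2.69, 2.86, 3.35, 1.68 and 2.18 on denervated arrays 1 to 5, against 2.53, 1.72, 1.99, 1.05 and 1.64 on contralateral arrays 1 to 5. The sides overlapped, although each number was higher on its denervated side, by between 0.16 in number 1 and 1.36 in number 3. Folr2 had 2.76, 4.04, 3.86, 3.05 and 2.65 on denervated arrays 1 to 5, against 2.44, 2.41, 2.71, 2.43 and 2.44 on contralateral arrays 1 to 5. The contralateral arrays were close together for Folr2 (SD 0.13) and the denervated arrays spread (SD 0.64), with denervated array 5 below contralateral array 3. Clec10a differed by 0.77 ± 0.32 and Folr2 by 0.79 ± 0.25.

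Cbr2, a carbonyl reductase that serves as a transcript marker of these macrophages in mice, had 5.12, 6.20, 5.30, 5.59 and 4.15 on denervated arrays 1 to 5, against 4.76, 5.12, 4.46, 4.99 and 4.61 on contralateral arrays 1 to 5. Number 5 differed by -0.46 and the other 4 numbers by 0.36 to 1.08. Its mean difference was 0.49 ± 0.31 (-0.19 to 1.16), or 0.25 without denervated array 2 and 0.77 without denervated array 5.

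The other members are secreted proteins. Fcna encodes ficolin A, a lectin of plasma that starts the lectin pathway of complement and is made by macrophages. It had 3.73, 5.22, 4.49, 3.92 and 4.38 on denervated arrays 1 to 5, against 2.36, 3.68, 2.67, 3.42 and 2.88 on contralateral arrays 1 to 5. The lowest denervated value, in number 1, was just above the highest contralateral one, in number 2. Fcna differed by 1.35 ± 0.31 (95% confidence interval 0.67 to 2.02), with 0.50 in number 4 and 1.37 to 1.82 in the others. Contralateral arrays 1, 3 and 5 were below 3 and so low for Fcna, where a value cannot be told from background, and the size of the difference is uncertain for that reason. Without both denervated arrays 2 and 3 the Fcna difference was 1.01, and it moved by less than 1.5 times in every alternative computed for it.

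F13a1 encodes the A subunit of coagulation factor XIII, a transglutaminase that cross-links fibrin. Its values were 6.52, 7.69, 6.98, 6.75 and 5.55 on denervated arrays 1 to 5, against 5.86, 6.64, 5.76, 6.69 and 5.00 on contralateral arrays 1 to 5. Each number was higher on the denervated side, number 4 by only 0.06 and number 3 by 1.22. The mean difference was 0.71 ± 0.40 (-0.17 to 1.59), and it was 0.46 without denervated array 2 as well as without contralateral array 5.

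Pf4 encodes platelet factor 4, the chemokine CXCL4, which platelets store and tissue macrophages also express. It had 5.38, 6.20, 6.18, 5.23 and 4.93 on denervated arrays 1 to 5, against 4.85, 5.10, 5.03, 5.26 and 4.54 on contralateral arrays 1 to 5. Denervated arrays 1, 2 and 3 stood above all contralateral arrays, and number 4 differed by -0.03. The mean difference was 0.63 ± 0.25 (0.08 to 1.17).

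**Figure D2:**
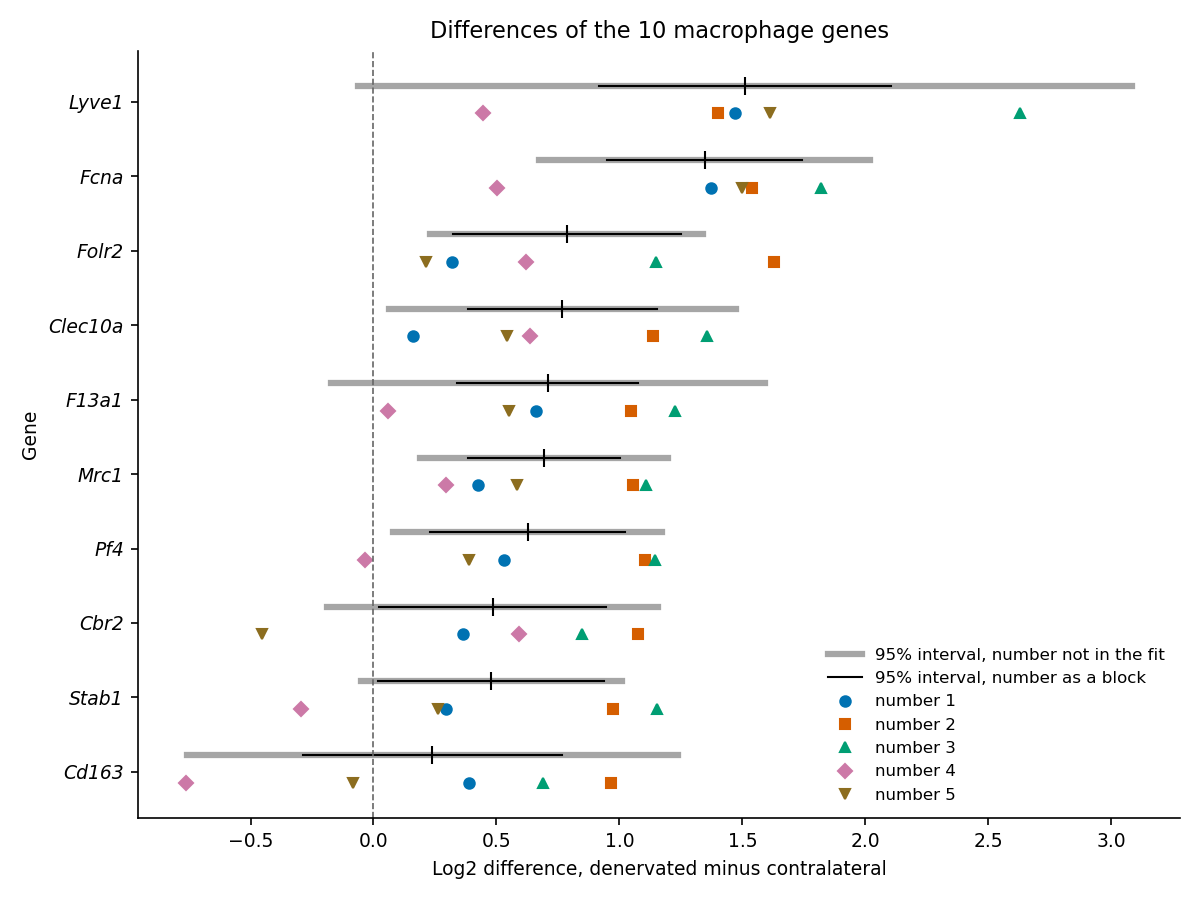
Log2 difference, denervated minus contralateral (horizontal axis), of each gene; the tick marks the mean difference, the grey bar its 95% interval without the number in the fit, the black line that with the number as a block, and the symbols the 5 within-number differences. Lyve1 and Fcna lie farthest right, and Cd163 has both intervals across 0.

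The promoters of Fcna, Mrc1 and Pf4 are shown as 3 of the 4 genes found to share a string of letters, the other being Folr2. The string was picked after several had been searched in these promoters. All 10 genes were higher on average, which does not set these 3 apart. Whether the string has a part in any difference was not tested. The lines give the 250 bases before the transcription start, 5′ to 3′ on the strand of the gene, from RefSeq on GRCm38.p6; capitals mark AGGAAGTG or its reverse complement, letters found in binding sites of ETS family factors such as PU.1.
Fcna, chr2:25627975-25628224, minus strand: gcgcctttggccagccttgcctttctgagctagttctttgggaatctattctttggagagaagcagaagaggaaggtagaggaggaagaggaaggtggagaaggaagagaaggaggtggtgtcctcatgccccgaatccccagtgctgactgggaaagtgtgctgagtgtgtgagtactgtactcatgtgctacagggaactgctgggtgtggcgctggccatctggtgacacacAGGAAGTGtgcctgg
Mrc1, chr2:14229164-14229413, plus strand: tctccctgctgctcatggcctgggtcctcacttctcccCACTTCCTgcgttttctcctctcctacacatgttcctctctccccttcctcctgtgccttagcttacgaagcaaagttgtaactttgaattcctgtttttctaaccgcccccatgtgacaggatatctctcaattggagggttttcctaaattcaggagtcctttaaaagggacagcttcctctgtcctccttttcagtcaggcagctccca
Pf4, chr5:90772185-90772434, plus strand: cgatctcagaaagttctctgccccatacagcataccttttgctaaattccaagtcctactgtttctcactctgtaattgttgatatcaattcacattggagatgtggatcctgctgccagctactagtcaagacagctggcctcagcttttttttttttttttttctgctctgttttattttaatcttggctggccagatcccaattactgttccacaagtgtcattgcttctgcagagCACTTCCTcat

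Promoters of 8 of the 10 genes matched by symbol, 10 promoters in all since Folr2 and F13a1 have several starts. On either strand, AGGAAGTG was found in the promoters of 4 of these 8 genes (Folr2, Pf4, Fcna and Mrc1) and in 3.14% of the 32851 mouse promoters of the same length. The string began 15 bases before the start in Fcna, 212 in Mrc1 and 11 in Pf4. GAGGAA, which can overlap it, was found for 6 of the 8 genes and in 23.3% of promoters. TGCTGA, letters of MAF factor sites, was found for 3 (16.1% of promoters) and TATAAA for 0 (12.4%). A match of letters is a description and shows no binding.

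The variation of each gene over the arrays was divided between side and number. Of the sum of squares of a gene over the 10 arrays, the side accounted for a median of 31.6% and the number for 49.1%. The side has 1 of the 9 degrees of freedom, or 11.1%, and the number 4, or 44.4%, which are the shares to expect where neither has an effect, so the raw shares cannot be set against each other directly. The side had 64.3% for Fcna, 47.6% for Folr2 and 46.5% for Mrc1, and the number had 28.6%, 30.6% and 42.9% for these genes. For Cd163 the side had 2.47% and the number 81.5%, and for F13a1 22.2% and 70.5%. Denervated array 2 was the highest of all 10 arrays for 8 genes, and denervated array 3 for Clec10a and Stab1. At the other end, contralateral array 5 was the lowest for Lyve1, F13a1, Pf4, Stab1 and Mrc1.

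**Figure D3:**
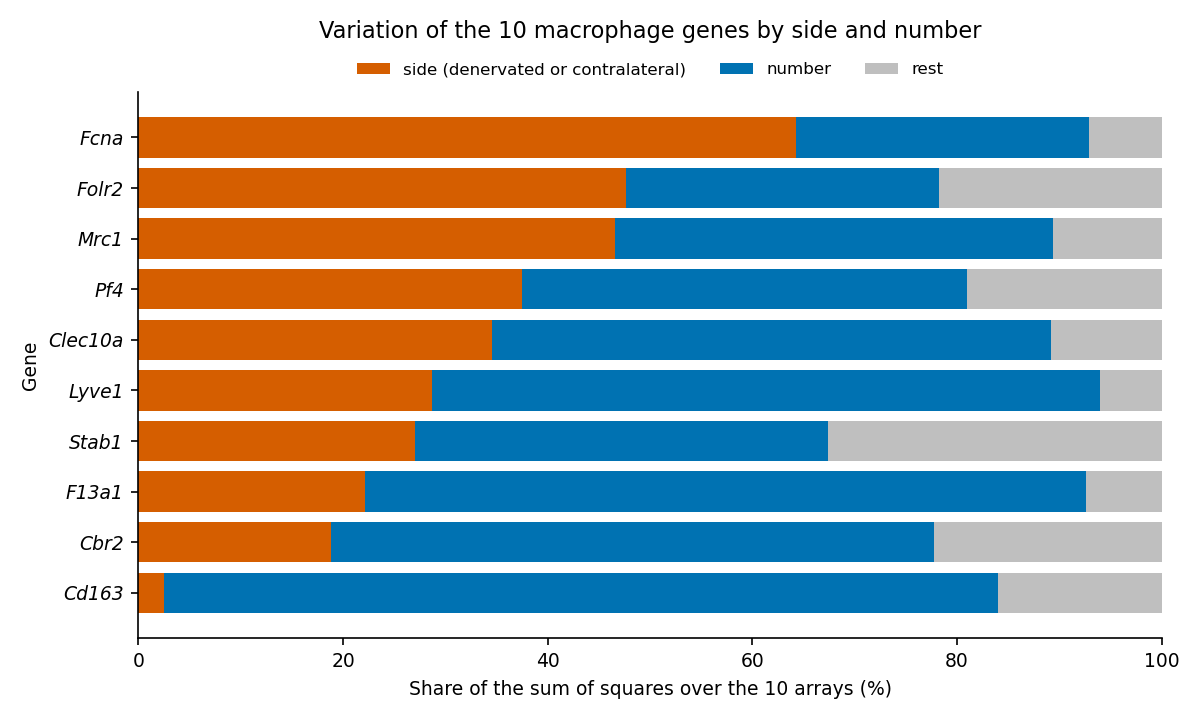
Share of each gene's sum of squares over the 10 arrays (horizontal axis, percent) that goes with the side, the number and the rest. The side's share runs from 2.47% for Cd163 to 64.3% for Fcna.

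The size of the difference was uneven between numbers. The mean of the 10 differences was 0.60 in number 1, 1.19 in number 2, 1.31 in number 3, 0.21 in number 4 and 0.51 in number 5. All 10 genes were higher on the denervated side in numbers 1, 2 and 3, 7 of 10 in number 4 and 8 of 10 in number 5. Over all genes 46.1%, 57.6%, 60.0%, 52.4% and 48.1% were higher in numbers 1 to 5. Without denervated arrays 2 and 3 the median of the 10 genes was 0.31 and 9 remained higher on average, all but Cd163.

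Genes of macrophages in general were higher too. Of the 12 listed, 11 were higher on average, 7 of them with an unadjusted p under 0.05 and 0 after adjustment, and the median difference was 0.45. Among all genes 4.1% were higher at that p, and 65.1% of those with a mean of at least 3 were higher on average. With the number as a block, 10 of the 12 were higher and 1, Mertk, was lower at an unadjusted p under 0.05. Over all genes these shares were 6.99% and 2.93%. The receptor gene Csf1r averaged 8.69 ± 0.35 on denervated and 8.39 ± 0.15 on contralateral arrays (SD, n = 5 each), a difference of 0.30 ± 0.15. Adgre1, a standard surface marker of mouse macrophages, differed by 0.47 ± 0.14, the Fc receptor gene Fcgr1 by 0.64 ± 0.12 and the lysozyme gene Lyz2 by 0.63 ± 0.19. Fcgr1 was low on contralateral arrays, with a mean of 2.92, so the size of its difference is uncertain. Mertk, the receptor gene of apoptotic cell uptake, was the 1 lower gene, at -0.24 ± 0.17, and was named after its value was seen. The mean of this list differed by 0.18, 0.61, 0.81, 0.15 and 0.27 in numbers 1 to 5, so numbers 2 and 3 were the highest here as well. Whether the 10 perivascular genes differed by more than general macrophage genes was not tested. In monocyte genes 8 of 8 measured were higher on average, with a median of 0.27, S100a4 at 1.24 ± 0.46, Fn1 at 0.24 ± 0.13 and Plac8 at 0.17 ± 0.10. Of these 8 genes, 4 had a mean of at least 3 and the others were low, and 55.8% of all genes were higher on average. S100a4, low on contralateral arrays with a mean of 2.74, differed by 0.53, 3.05, 2.30, -0.10 and 0.42 in numbers 1 to 5. Fn1 averaged 9.71 over the 10 arrays, above Csf1r at 8.54, and how far monocytes account for that level was not tested. Without denervated arrays 2 and 3 the medians were 0.18 for general macrophage genes and 0.13 for monocyte genes. Genes of MHC class II cells, low in the perivascular type, were higher on average in 9 of 11 with a median of 0.16, among them H2-DMa at 0.50 ± 0.24, Cd74 at 0.23 ± 0.21 and H2-Ab1 at 0.26 ± 0.26. Of these 11 genes, 5 had a mean of at least 3, and H2-DMa was low on contralateral arrays, with a mean of 2.81.

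Other genes of the perivascular macrophage programme went in both directions. Of 19 measured, 13 were higher and 6 lower on average, with a median of 0.13, and 1 had an unadjusted p under 0.05 (with the number as a block, 4 that were higher and 1 that was lower). Without the block that was Ccl8, a chemokine gene, with 3.39 ± 0.60 on denervated and 2.61 ± 0.41 on contralateral arrays (SD, n = 5 each). The haem oxygenase gene Hmox1 differed by 0.39 ± 0.20 and the lectin gene Cd209f by -0.30 ± 0.19. Of the 19 genes, 10 had a mean of at least 3, and the others were low. Maf, Pltp and Igf1, named after their values were seen, averaged 10.81, 8.85 and 8.77 over the 10 arrays, above Csf1r at 8.54. How far macrophages account for such levels in whole tissue RNA was not tested. Over all genes 55.8% were higher on average, and 4.1% were higher at an unadjusted p under 0.05 in limma. With the block, 6.99% of all genes were higher and 2.93% lower at that p. Scavenger receptor genes outside the 10 were higher in 7 of 12, with a median of 0.01, with Cd68 at 0.74 ± 0.28, Msr1 at 0.47 ± 0.18 and Scarb1 at 0.11 ± 0.11. Cd68 and Msr1 were low on contralateral arrays, with means of 2.90 and 2.84.

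Among 23 ligands and receptors that maintain or attract resident macrophages, 16 were higher on average, with a median of 0.15. In limma 4 of them had an unadjusted p under 0.05, against 4.1% of all genes. With the number as a block, 6 were higher and 1 lower at that p, against 6.99% and 2.93% of all genes. Of the 23, 17 had a mean of at least 3. The share of higher genes, 16 of 23, is near the 65.1% found among all genes with such a mean. Over all genes that share was 55.8%. The fractalkine receptor gene Cx3cr1 differed by 0.31 ± 0.11, Pros1, which encodes the TAM receptor ligand protein S, by 0.36 ± 0.13, and the interleukin-4 receptor gene Il4ra by 0.26 ± 0.10. Partners and relatives of the 10 genes, such as other folate carriers, ficolin partners and carbonyl reductases, were higher in 13 of 20 with a median of 0.04. Dcxr, a reductase related to Cbr2, differed by 0.51 ± 0.20, Hyal2, a hyaluronidase gene, by 0.30 ± 0.13, and the carbonyl reductase gene Cbr3 by 0.42 ± 0.23.

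Several of the 10 genes are also expressed by other cell types, whose markers were set beside them. Lyve1 and Stab1 occur in lymphatic or sinusoidal endothelium. Among all genes, 55.8% were higher on average. Of 5 measured lymphatic genes 2 were higher and 3 lower on average, and the mean of the list ran from 3.16 to 3.67 on denervated and from 3.19 to 3.51 on contralateral arrays. Prox1, the factor that defines lymphatic identity, was at 0.74 ± 0.13 on denervated and 1.07 ± 0.29 on contralateral arrays, close to the bottom of the scale, and differed by -0.32 ± 0.13. Flt4, which blood vessels can also express, differed by 0.62 ± 0.39, Reln by 0.25 ± 0.33 and Pdpn by -0.19 ± 0.29. Pf4 is stored in platelets, and F13a1 occurs there as well. Platelet and megakaryocyte genes were higher in 4 and lower in 4 of 8, with list means of 1.32 to 1.65 on denervated and 1.38 to 1.54 on contralateral arrays. Only 1 of the 8, Gp1bb, had a mean of at least 3. The others were low, where a value cannot be told from background, so their directions say little. The integrin gene Itga2b was at 1.96 ± 0.05 on denervated and 1.92 ± 0.05 on contralateral arrays, and Gp1bb differed by 0.21 ± 0.18.

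The means of the pericyte, blood endothelial and neutrophil lists had their highest differences in numbers 2 and 3, as the mean of the 10 genes did. Within the pericyte list, Pdgfrb was highest in number 5, at 0.53. For the counts of genes higher or lower on average in these lists, 55.8% of all genes were higher on average. Among genes with a mean of at least 3 that share was 65.1%. The pericyte and smooth muscle list was higher on average in 10 of 10, with list means of 6.13 to 7.16 on denervated and 5.98 to 6.18 on contralateral arrays. Of these genes, 5 were higher in all 5 numbers, against 6.58% of all genes. In limma 4 were higher at an unadjusted p under 0.05 (4.1% of all genes), and 5 with the number as a block (6.99%). The mean of the list differed by 1.03 and 0.87 in numbers 2 and 3 and by -0.03 to 0.18 in the others. Pdgfrb differed by 0.33 ± 0.10, Rgs5 by 0.31 ± 0.10 and Acta2 by 0.90 ± 0.40. Blood endothelial genes differed by 0.59 and 0.57 in numbers 2 and 3 and by -0.14 to -0.08 in the others, with list means of 4.69 to 5.48 on denervated and 4.77 to 5.13 on contralateral arrays. All 10 of them were higher on average, among them Pecam1 at 0.46 ± 0.22, Cldn5 at 0.38 ± 0.36 and Tek at 0.24 ± 0.21. The neutrophil list, higher on average in 6 of 7, differed by 0.97 and 2.08 in numbers 2 and 3 and by -0.75, -0.25 and -0.22 in numbers 1, 4 and 5, with list means of 1.61 to 3.96 on denervated and 1.85 to 2.40 on contralateral arrays. Its calprotectin genes S100a8 and S100a9 differed by 0.54 ± 0.72 and 0.54 ± 0.74. The dental epithelium list, lower on average in 6 of 6, differed by -3.53 in number 3 and by -0.27 to 0.14 in the other numbers, with list means of 6.61 to 10.17 on denervated and 10.03 to 10.27 on contralateral arrays. Its genes Epcam, Cdh1 and Krt14 differed by -0.21 ± 0.15, -0.43 ± 0.32 and -0.50 ± 0.37. In numbers 1, 4 and 5 alone, the 10 genes differed by a median of 0.40, against 0.70 over all numbers, with 9 of 10 higher, Stab1 at 0.09 and Cbr2 at 0.17. In those numbers the blood endothelial and neutrophil means were lower on the denervated side, and the pericyte mean was higher in numbers 1 and 4, by 0.12 and 0.18. The part of these other cell types in the differences of the 10 genes was not tested.

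**Figure D4:**
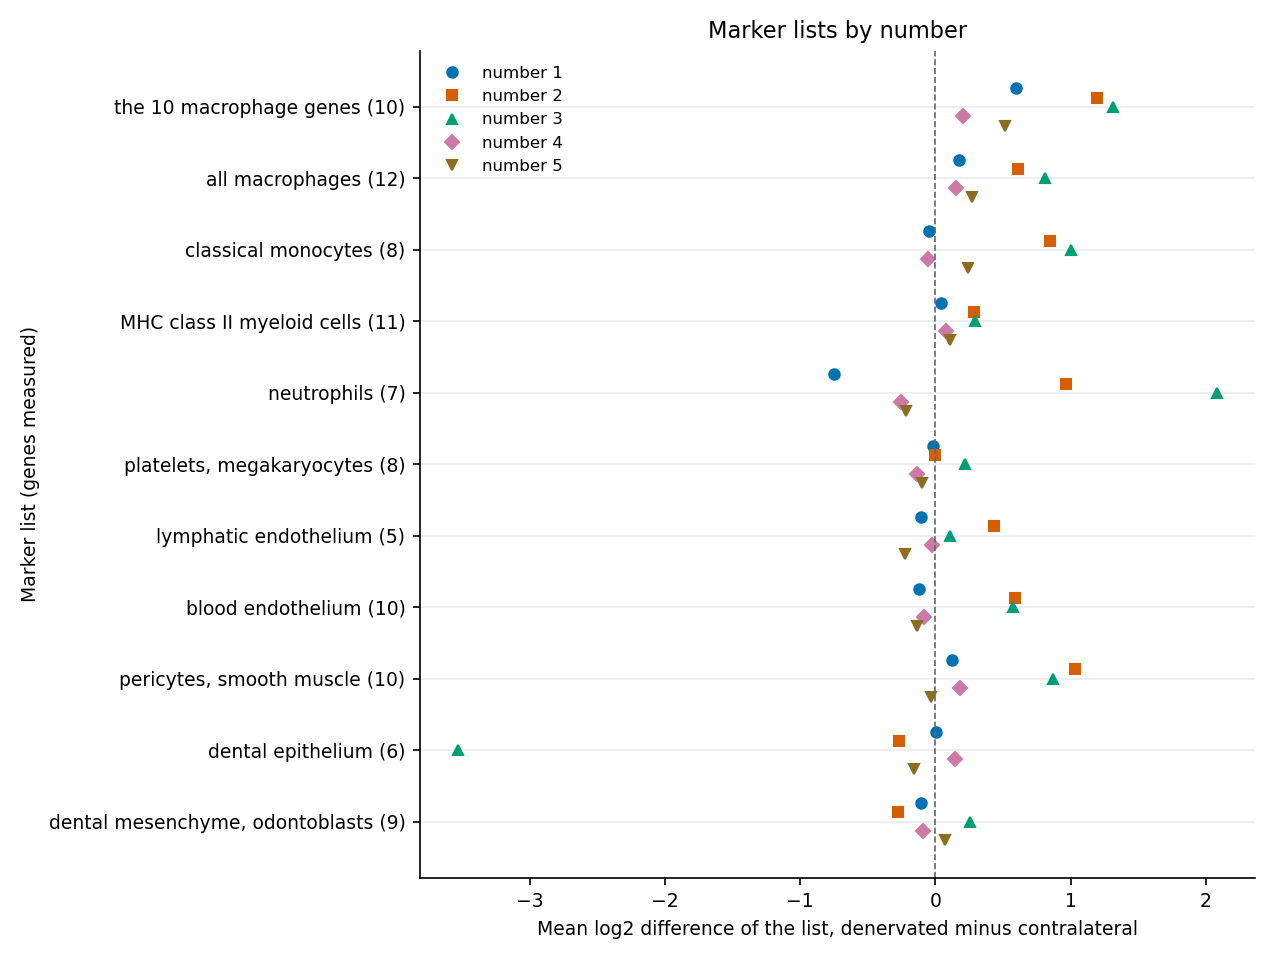
Mean log2 difference of each marker list, denervated minus contralateral (horizontal axis), in each of the 5 numbers, with the number of genes measured in brackets. The 10 macrophage genes lie right of 0 in all 5 numbers, between 0.21 and 1.31, as do the general macrophage and MHC class II lists, and the blood endothelium and neutrophil lists lie right of 0 in numbers 2 and 3 and left of it in the others.

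The genes whose pattern was most like that of the 10 were found by Pearson's r between each gene and the mean of the 10 centred genes over the 10 arrays. The arrays share mice and sides, so r is a description only. Only genes outside the 10 with a mean of at least 4 and a plain symbol were ranked, which left out clone and predicted-gene names. Among these, the closest were Adck5, Ankrd46, Aldh7a1, Tns2, Mrpl23, Clic1, Alox5ap, Man2a2, Enpep and Pwwp3a, with r between 0.94 and 0.96. Their differences ran from 0.19 ± 0.10 for Man2a2, a Golgi mannosidase gene, to 0.46 ± 0.17 for Enpep, which encodes the peptidase aminopeptidase A. Alox5ap, needed for leukotriene synthesis in myeloid cells, differed by 0.45 ± 0.28. Each of the 10 genes was also set against the mean of the other 9: r was highest for Mrc1 (0.99) and lowest for Clec10a (0.43). Csf1r had r of 0.83 with the mean of the 10 and Adgre1 0.47.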

How the data were processed

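Total RNA of 10 lower incisor mesenchyme samples was measured on arrays, 5 denervated and 5 contralateral. The authors deposited 1 log2 value per probe set and array. Per the submitters' processing notes RMA was used, with no version given; the log2 scale was read from the values, and which variant of the method gave values as low as -0.16 is not given in the sources used here, so differences between low values depend on an unknown background step. No detection calls were used.

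Of 45101 probe sets, 64 controls were left out; 34945 name 1 gene, 932 several and 9160 none. Each of 18193 genes took its probe set with the highest mean. limma 3.58.1 (lmFit, eBayes; R 4.3.3) compared the sides, with Benjamini-Hochberg adjustment over all genes and a threshold of 0.05. Differences are denervated minus contralateral, with limma's standard errors. The fit was tested on simulated data.

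The labels do not say that equal numbers mark a mouse. Deviations from group means correlated over genes between 0.18 and 0.57 in same-numbered pairs (-0.41 to 0.22 in others). Every same-numbered pair was over 0.1, and the numbers were taken as pairs. That cut does not establish pairing, since pairs of other numbers reached 0.22. Moreover, 1 of the 5 denervated arrays had its highest correlation with a contralateral array of another number. Nothing says whether tissue was handled in batches.

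The 10 genes and all lists were chosen with earlier results of these data known, so no list was tested. Named genes were the 10, the 3 of each other list with the smallest unadjusted p and a mean of at least 3, Csf1r, Adgre1, Prox1, Itga2b and Pecam1, and the 10 most alike in pattern. Listed genes without a probe set of 1 symbol were not analysed here.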

Additional observations from a re-analysis of the deposited data

Results flagged for a closer look

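Within the groups of 5 arrays of the 69 named genes, 138 groups in all, 12 groups held 1 array whose gap to the nearest other array was over 0.71 of the whole range. Chance would give about 1 in 20 groups, and 8.7% were found. The cause of none was tested. Of the 10 perivascular genes only Folr2 was among them, with 2.71 on contralateral array 3 against 2.41 to 2.44 on the other contralateral arrays, all near the low end of the scale.

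Denervated array 3 stood apart for 3 genes. Adgre1 was high there, at 6.27 against at most 5.63 on the other denervated arrays. The epithelial genes Cdh1 and Krt14 were low there, at 7.41 and 6.83 against at least 8.92 and 8.86. Denervated array 2 was high for Pwwp3a (5.71, next 5.39) and denervated array 4 for Cd209f (3.38, next 2.98).

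Contralateral array 5 was low for Fn1 (9.38, next 9.6), Tek (4.05, next 4.78) and Mrpl23 (7.12, next 7.38), and high for Itga2b (2.01, next 1.9). Contralateral array 3 was high for Prox1 (1.59, next 0.98) and contralateral array 1 for Ctsk (7.75, next 7.49).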

How the results depend on the processing

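In 18 alternatives, 166 of 169 values of the 10 genes kept their direction, and 0 of 169 passed an adjusted p of 0.05. The 3 others were all Cd163: -0.12 without denervated array 2 (-0.12 to 0.54 when each array was left out in turn), -0.23 without denervated arrays 2 and 3, and -0.15 from numbers 1, 4 and 5 only with the number as a block. The cause was not tested beyond leaving these arrays out. The median of the 10 genes was 0.31 without denervated arrays 2 and 3, and 0.49 to 0.84 when each array was left out in turn. Genes with an unadjusted p under 0.05 numbered 1129, and 1805 with the replicate block; the block changed no call at the adjusted threshold. They numbered 438 among the 9010 genes with a second probe set and 646 among the 9331 with a mean of at least 3, where fewer genes were tested. The second probe set gave a value for Lyve1 only. Clec10a and Folr2 lie near the low end of the scale, where signal over background limits the size of any difference.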

Other observations

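Macrophage states other than the perivascular one, and cells of related origin, were read from further lists. Genes of lipid-handling or repair macrophages were higher on average in 5 of 9 with a median of 0.08. That share is near the 55.8% of all genes, and 5 of the 9 had a mean of at least 3. Apoe, the apolipoprotein E gene, differed by 0.34 ± 0.17. It was higher in 5 of 5 numbers, as were 9.29% of genes with a mean of at least 3. Lpl differed by 0.68 ± 0.58 and Lgals3 by 0.44 ± 0.38, each higher in 3 of 5 numbers. Lpl differed by -0.85 and -1.04 in numbers 1 and 5, and by 2.26 and 2.74 in numbers 2 and 3. Osteoclast genes were higher in 5 of 9 with a median of 0.08, with the phosphatase gene Acp5 at 0.63 ± 0.39, the cathepsin K gene Ctsk at 0.27 ± 0.18 and Mmp9 at 0.47 ± 0.46. This share is again near 55.8%, and only 3 of these 9 genes had a mean of at least 3. Acp5 was higher in 4 of 5 numbers, Ctsk and Mmp9 in 3 of 5. Of 7 mast cell genes only Kit, which other cells express too, had a mean of at least 3, and it differed by 0.40 ± 0.17. The 3 measured red blood cell genes had list means of 0.94 to 1.99 on denervated and 1.27 to 1.60 on contralateral arrays. Of 9 genes of dental mesenchyme and odontoblasts 4 were higher and 5 lower on average, with the homeobox gene Prrx2 at 0.56 ± 0.20, Nes at -0.35 ± 0.15 and Dspp at -0.18 ± 0.08. In limma 0 genes of these lists had a Benjamini-Hochberg adjusted p under 0.05.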
